A study of Homo sapiens with 6 samples.

Results

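The 58 genes described here build the ribosome: nucleolar proteins, factors that cut, modify and fold ribosomal RNA, and subunits and initiation factors of RNA polymerases I and III. They were taken by gene symbol from a list of members, and all 58 were found among the 54628 genes of the count tables. The RNA came from U87, a long-established line of human glioblastoma, grown beside other cells and then separated by fluorescence-activated sorting. Of the 6 libraries, 3 are of cycling recipients of mitochondria (received) and 3 of cycling non-recipients (not received), with astrocytes named in the series title as the donors. Both groups are the same line, and the labels give no further treatment. The sources used here do not give how receipt and cycling were read at the sorter. The comparison asks how the 58 genes differed between recipients and non-recipients.

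Ribosome assembly begins in the nucleolus, where RNA polymerase I transcribes one long precursor of the large ribosomal RNAs while RNA polymerase III makes 5S RNA and transfer RNAs elsewhere in the nucleus. Small nucleolar RNAs guide chemical modification of the precursor, and assembly factors then build the small and large subunits along separate routes. Fast-growing cells keep the pathway active, and many of its genes are textbook targets of the transcription factor MYC, which binds the E-box hexamer CACGTG.

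The hexamer is shown here because it was common at the start sites of these genes and because it places the genes in their promoter context. A RefSeq table of promoters (assembly GRCh38.p14, 250 bases before to 50 after each start) held windows for 48 of the 58 genes, and 21 of the 48 (43.8%) had CACGTG in at least 1 window. The hexamer is its own reverse complement, so 1 search covered both strands. It stood in 12.4% of the 10538 tested genes with a window and in 8.77% of all 27305 genes in the table. Among members it was found in 4 of 6 nucleolar genes, 3 of 6 genes of snoRNA-guided particles, 8 of 15 small-subunit genes, 5 of 12 large-subunit genes, 0 of 6 polymerase I genes and 1 of 3 polymerase III genes. Of the 11 members whose expression rose, 8 had a window, and 2 of these 8 had the hexamer. It was found in 19 of the 38 members with a window that were not called, and UBTF, the gene that fell, lacked it. The difference between these shares was not tested. A match of letters is a description of the window and not a binding site. Stretches of 30 bases around the hexamer, which is in capitals, follow for 8 members, each read along the gene's own strand.
DDX21 (chr10:68956604-68956633, plus strand): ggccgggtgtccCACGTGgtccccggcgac
LYAR (chr4:4290068-4290097, minus strand): cggcggcgagtcCACGTGctccccgcggcc
RRP9 (chr3:51941892-51941921, minus strand): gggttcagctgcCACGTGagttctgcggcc
NOP10 (chr15:34343130-34343159, minus strand): gaaattgacgaaCACGTGacgcggtcgggc
UTP4 (chr16:69132621-69132650, plus strand): agagcgcgcgcgCACGTGgggccggggcgg
UTP20 (chr12:101280083-101280112, plus strand): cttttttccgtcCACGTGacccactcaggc
PES1 (chr22:30591880-30591909, minus strand): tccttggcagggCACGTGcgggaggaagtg
POLR3A (chr10:78029533-78029562, minus strand): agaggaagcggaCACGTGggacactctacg
In DDX21 the hexamer began 31 bases before the annotated start, in LYAR 64 and in POLR3A 35. These 8 were picked to cover the roles after the matches were seen. DDX21 and LYAR rose and the other 6 were not called.

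Total counts per library ran from 17879552 to 46392491. Not-received replicate 2 stood apart: it was sequenced most deeply, its score on principal component 1 was -44.4 where those of not-received replicates 1 and 3 were -13.8 and -14.8, and 0.696% of its counts were in genes that RefSeq classes as pseudogenes, against 0.341% to 0.390% in the other libraries. Of 16 markers of cycling cells all were tested, and 1 was called higher and 1 lower (2 and 3 by DESeq2). Their summed level was 4827 to 5001 CPM in received and 4936 to 5176 CPM in not-received libraries. That sum held opposite shifts. Every received library lay below every not-received one in 7 markers: MKI67, PCNA, MCM2, MCM5, MCM6, TYMS and RRM2. The order was the other way round in 3, CCNB1, CCNB2 and CDK1. Of all tested genes 19.5% did so in each direction. The part of these shifts in the results below was not tested. CPM is the usual depth-scaled count, also scaled here for composition. Of 10 astrocyte markers 3 were at 0 counts in every library (AQP4, ALDH1L1 and GJB6), and 7 stayed under 1 CPM, GFAP among them. The summed astrocyte list stood at 129 to 140 CPM in received and 145 to 155 CPM in not-received libraries, nearly all of it from SLC1A3, ALDOC and GLUL. Its part in the results below was not tested. Nothing says that the replicates were grown separately, so a p-value here measures only how these samples spread, which may be technical. The values are shares of each library's RNA, so fewer cells with a transcript and less of it per cell cannot be told apart.

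Ribosome biogenesis genes were slightly higher, in most members, in cells that had received mitochondria. Of the 57 members tested, 11 rose, and the background share of all tested genes called higher was 9.21%. The 11 were DDX21, LYAR, NOLC1, UTP15, DDX10, TBL3, WDR12, BOP1, NOC2L, POLR1B and POLR3G, 19.3% of the members tested. UBTF alone fell, 1.75% of the members against a background of 9.67%. A gene counts as called at an adjusted p under 0.05 in edgeR's quasi-likelihood test over 14100 genes. The median log2 fold change of the members was 0.13, while that of all tested genes was -0.0012. The sign was positive in 45 of 57 members, against 49.8% of all genes tested. The lowest of the 3 received libraries lay above the highest of the 3 not-received libraries in 27 members, where 19.5% of all tested genes did so, and the order was the other way round in NCL and UBTF (background 19.5%). The changes were small: the 11 risers went up 1.15-fold (NOLC1) to 1.29-fold (POLR1B).

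**Figure D1:**
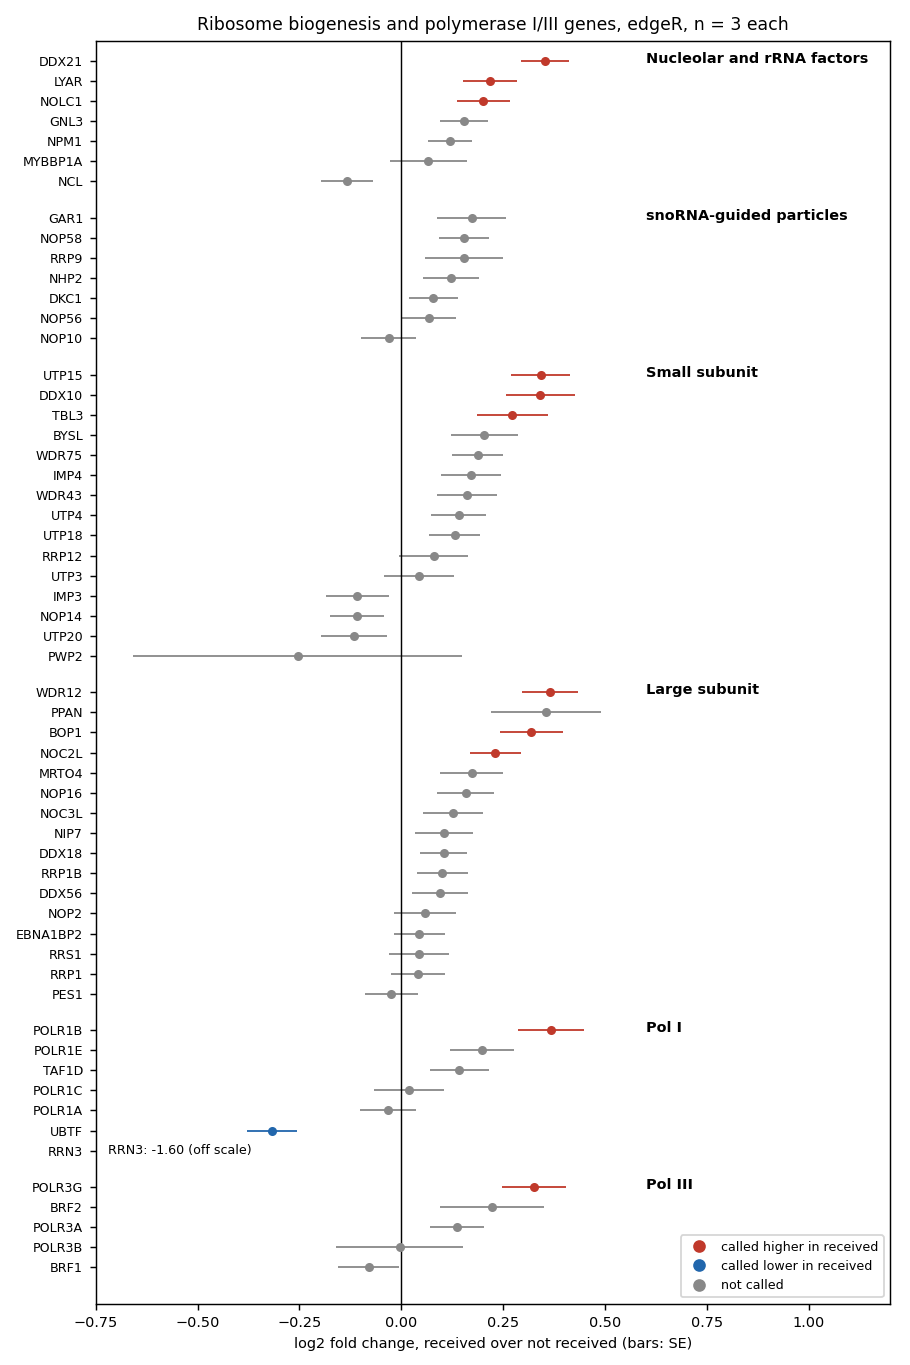
Log2 fold change of received over not received cells for each of the 57 tested members (x axis; bars are SE, n = 3 libraries a group), grouped by role, with called genes in colour. Most points lie right of 0, 11 are called higher, and UBTF at -0.32 is the single gene called lower; RRN3 at -1.60 lies off the scale and is given as text.

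The count of members that rose depended on the libraries in the fit. It was 7, 6 and 5 without received replicate 1, 2 and 3, where the share of all genes called higher was 4.23%, 4.15% and 4.52%. It was 17 without not-received replicate 2 (background 9.48%), and 11 of the 12 called members were also called in that fit. DDX21, UTP15, WDR12, POLR1B and UBTF were called in each of the 6 fits that left 1 library out. UBTF was the single member that fell in 5 of them. The share of all genes called lower was 5.13%, 4.74% and 5.12% in the fits lacking received replicate 1, 2 or 3, 8.59% in the one lacking not-received replicate 1 and 11% in the one lacking not-received replicate 2. Without not-received replicate 3, 8 members rose (background 8.58%) and 2 fell (background 9.73%), and without not-received replicate 1, 12 rose (background 7.29%). DESeq2 called the same 12 members, where 8.46% of all genes were higher and 10.6% lower, and limma-voom called 11 of them, all but NOLC1 (8.93% and 8.83%). With no low-count filter 11 rose and 2 fell (5.05% and 7.23%). With scaling by library size alone 15 members rose (background 11.9%) and UBTF fell (background 7.87%). Calls over all genes then split 60.3% higher, against 48.8% with composition factors. The background shares of each fit also hold for the counts by role and list below.

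Together the 58 genes took 0.595%, 0.5999% and 0.623% of all counts in received cells and 0.563%, 0.564% and 0.543% in not-received cells. The groups did not overlap, and the means were 0.606% ± 0.0147 in received and 0.557% ± 0.0118 in not-received cells (SD, n = 3 each), given as a description with no test. These shares are of raw counts, without composition factors. With the factors the 58 genes summed to 5989 ± 172 CPM in received and 5647 ± 131 CPM in not-received cells (SD). Nucleolar genes then overlapped, at 2455 to 2543 CPM in received and 2290 to 2504 CPM in not-received libraries. Received replicate 3 held the highest value for 30 of the 57 tested members, and not-received replicate 3 the lowest for 20. The mean share was higher in received than in not-received cells for nucleolar genes (0.252% in received against 0.233% in not-received cells, and in that order for the next pairs), snoRNA-guided particles (0.0642% against 0.0588%), the small subunit (0.0804% against 0.0725%), the large subunit (0.156% against 0.139%) and polymerase III (0.0167% against 0.0152%). It was 0.0366% in received and 0.0379% in not-received cells for polymerase I genes.

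**Figure D2:**
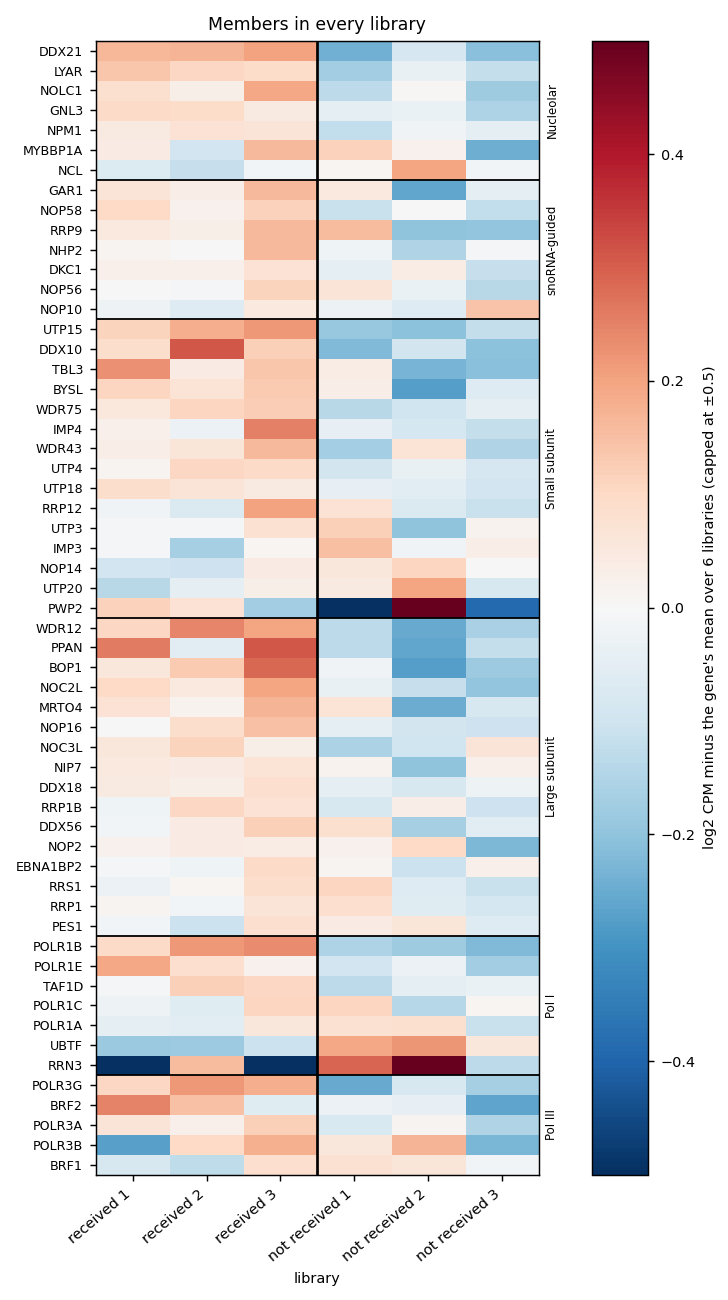
Level of each tested member in each library, as log2 CPM minus the gene's mean over the 6 libraries (colour, capped at ±0.5), with members in rows by role and libraries in columns. The received columns are mostly above the mean and the not-received columns mostly below it. Of 12 members with a negative fold change, UBTF and NCL are the other way round without overlap between the groups. PWP2 and RRN3, which had few counts, reach the ends of the colour scale.

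Among nucleolar proteins and helpers of ribosomal RNA, 3 of 7 rose (42.9%, background 9.21%). DDX21, an RNA helicase that takes part in ribosomal RNA transcription and processing, stood at 213, 213 and 218 CPM in received cells and at 160, 179 and 164 CPM in not-received cells. The groups were well apart, by 0.35 ± 0.06 (SE) on the log2 scale, with an edgeR adjusted p of 0.0012. LYAR, a zinc-finger nucleolar protein, had 61.5, 59.9 and 59.4 CPM in received against 49.4, 54.3 and 51.4 CPM in not-received cells (log2 fold change 0.22 ± 0.07, edgeR adjusted p = 0.0363). NOLC1, a chaperone of small nucleolar particles, had 265, 256 and 287 CPM in received against 229, 251 and 221 CPM in not-received cells (0.20 ± 0.07, edgeR adjusted p = 0.0454). The gap was narrow in NOLC1, where the lowest received library lay just above the highest not-received one. The calls of LYAR and NOLC1 were each lost in 5 of 6 fits with 1 library left out, all but the one without not-received replicate 2 (highest edgeR adjusted p = 0.131 and 0.195), and the number of nucleolar genes that rose was then 1; without not-received replicate 2 it was 5.

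The most abundant nucleolar genes were not called. NPM1, the histone and ribosome chaperone nucleophosmin, had 1038, 1058 and 1053 CPM in received and 925, 995 and 977 CPM in not-received cells (log2 fold change 0.12 ± 0.05, edgeR adjusted p = 0.141). NCL, nucleolin, ran the other way, with 689, 668 and 717 CPM in received and 728, 829 and 717 CPM in not-received cells (-0.13 ± 0.06, edgeR adjusted p = 0.167). The groups of NCL all but met, at 716.6 CPM in received replicate 3 and 717.2 CPM in not-received replicate 3, and not-received replicate 2 was its highest library. Reads of NPM1 can also match its processed pseudogenes, of which 50 are listed; their summed level was 6.38 to 8.79 CPM in received libraries and 9.89, 45.98 and 11.3 CPM in not-received libraries, highest in replicate 2. GNL3, nucleostemin, a GTPase of growing cells, had a fold change of 0.15 ± 0.06 on the log2 scale and MYBBP1A, a MYB-binding nucleolar protein, one of 0.07 ± 0.09. NPM1 and GNL3 were called higher in the fit without not-received replicate 2 (edgeR adjusted p = 0.0319 and 0.031).

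Genes of the snoRNA-guided modification machinery stayed below the threshold. By edgeR 0 of 7 were called in either direction, also 0 by DESeq2, with 1 higher and 0 lower at an unadjusted p under 0.05, a threshold that 16.6% of all tested genes passed as higher and 16.7% as lower. Without not-received replicate 1 RRP9 was called higher, and without not-received replicate 2 NOP58 was. NOP58 was also called higher with scaling by library size alone (edgeR adjusted p = 0.0385). NOP58, a core protein of box C/D particles, which guide ribose methylation, had 101, 95.6 and 102 CPM in received and 87.1, 94.2 and 86.5 CPM in not-received cells (log2 fold change 0.15 ± 0.06, edgeR adjusted p = 0.0965). Its partner NOP56 had 109, 109 and 118 CPM in received and 114, 107 and 99.2 CPM in not-received cells (0.07 ± 0.07, edgeR adjusted p = 0.497). The received libraries of NOP58 lay just above the others, whereas those of NOP56 overlapped with them. Of the box H/ACA proteins, which guide pseudouridylation, GAR1 had 49.7, 48.6 and 53.2 CPM in received and 49.2, 39.8 and 45.96 CPM in not-received cells (0.17 ± 0.08, edgeR adjusted p = 0.168). DKC1, the pseudouridine synthase dyskerin, had 125, 125 and 129 CPM in received and 119, 126 and 113 CPM in not-received cells (0.08 ± 0.06, edgeR adjusted p = 0.377). Both overlapped between the groups. NHP2 and NOP10, which complete the box H/ACA core, had log2 fold changes of 0.12 ± 0.07 and -0.03 ± 0.07, and RRP9, a protein of the U3 particle, of 0.15 ± 0.10.

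Of 16 small-subunit factors, 15 were tested and 3 rose (20%, background 9.21%). UTP15, part of the complex that first binds the nascent precursor, had 37.9, 39.9 and 40.8 CPM in received and 30.8, 30.4 and 32.3 CPM in not-received cells. Its groups were far apart relative to their spread (log2 fold change 0.34 ± 0.07, edgeR adjusted p = 0.00567). DDX10, an RNA helicase of the small-subunit processome, had 29.5, 34.4 and 30.1 CPM in received and 23.8, 26.0 and 24.1 CPM in not-received cells (0.34 ± 0.08, edgeR adjusted p = 0.0123). TBL3, a WD-repeat scaffold of the same particle, had 52.2, 45.9 and 49.0 CPM in received and 45.8, 37.9 and 38.5 CPM in not-received cells (0.27 ± 0.09, edgeR adjusted p = 0.0417). The TBL3 groups all but touched, and its call was lost without any 1 received library or without not-received replicate 2 or 3 (highest edgeR adjusted p = 0.180). The call of DDX10 was lost without received replicate 2 (edgeR adjusted p = 0.0761), a fit in which 1 small-subunit factor rose.

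The other 12 tested small-subunit factors had log2 fold changes of -0.25 to 0.20. WDR75 and WDR43, which sit with UTP15 and UTP4 in the same early complex, had 0.19 ± 0.06 (edgeR adjusted p = 0.0523) and 0.16 ± 0.07, and UTP4 had 0.14 ± 0.07. BYSL, needed for late small-subunit maturation, had 0.20 ± 0.08, IMP4 0.17 ± 0.07 and UTP18 0.13 ± 0.06. UTP20, IMP3 and NOP14 lay below 0, at -0.12 ± 0.08, -0.11 ± 0.08 and -0.11 ± 0.07. An antisense gene, NOP14-AS1, is listed beside NOP14, and whether counting used the strand is not given, so the NOP14 level is uncertain. UTP3 and RRP12, an export factor, had 0.04 ± 0.09 and 0.08 ± 0.08. WDR75 and WDR43 were called higher without not-received replicate 2, and WDR75 also without not-received replicate 3. BYSL was called higher without not-received replicate 1.

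PWP2, a processome scaffold, and NOC4L, a partner of NOP14, had few counts. NOC4L had 2, 1 and 7 counts in received and 6, 7 and 4 in not-received libraries and was not tested. PWP2 had 0.884, 0.858 and 0.723 CPM in received and 0.543, 1.59 and 0.623 CPM in not-received cells (log2 fold change -0.25 ± 0.40, edgeR adjusted p = 0.697, positive without not-received replicate 2). A protein-coding RefSeq gene on the same chromosome 21, LOC102724159, has a start region that matches that of PWP2 at 295 of 296 aligned bases. It had 17.5, 16.9 and 17.6 CPM in received and 16.0, 14.4 and 14.9 CPM in not-received cells (0.21 ± 0.09, edgeR adjusted p = 0.124). The sources used here do not say how reads that match both genes were assigned, so the level of PWP2 is uncertain. How reads were counted is not given for NOC4L either, so its level is uncertain too.

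Of 16 large-subunit factors, 3 rose (18.8%, background 9.21%). WDR12 and BOP1 form a complex with PES1 that is needed to process the precursor of the large-subunit RNAs. WDR12 had 62.2, 68.4 and 66.3 CPM in received and 52.9, 48.6 and 51.7 CPM in not-received cells (log2 fold change 0.36 ± 0.07, edgeR adjusted p = 0.00273). BOP1 had 126, 133 and 148 CPM in received and 120, 100.05 and 107 CPM in not-received cells (0.32 ± 0.08, edgeR adjusted p = 0.0122). In both genes every received library lay above every not-received one, by a wider margin in WDR12. PES1, the third subunit, had 149, 139 and 159 CPM in received and 154, 156 and 143 CPM in not-received cells, which overlapped (-0.02 ± 0.06, edgeR adjusted p = 0.823). The differences between the fold changes of the 3 subunits were not tested. NOC2L, which travels with pre-ribosomes to the nucleoplasm, had 189, 183 and 203 CPM in received and 172, 163 and 154 CPM in not-received cells (0.23 ± 0.06, edgeR adjusted p = 0.0204). Leaving out received replicate 3 ended the call of BOP1, and that of NOC2L ended without received replicate 1 or 3 or not-received replicate 3 (highest edgeR adjusted p = 0.0790 and 0.111), and 1 large-subunit factor rose without received replicate 3.

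The other 13 large-subunit factors had log2 fold changes of -0.02 to 0.35. PPAN, the highest of them, had 9.54, 7.67 and 9.89 CPM in received and 7.28, 6.65 and 7.33 CPM in not-received cells, and with that spread it was not called (0.35 ± 0.14, edgeR adjusted p = 0.0826). MRTO4, which holds the place of a stalk protein during assembly, had 0.17 ± 0.08, NOP16 0.16 ± 0.07, NOC3L 0.13 ± 0.07 and NIP7 0.11 ± 0.07. The helicases DDX18 and DDX56 had 0.10 ± 0.06 and 0.10 ± 0.07, and NOP2, a methyltransferase of the large ribosomal RNA, had 0.06 ± 0.08. EBNA1BP2 and RRS1, both at 0.04 (SE 0.06 and 0.07), lay near 0. The paralogs RRP1 and RRP1B had 0.04 ± 0.07 and 0.10 ± 0.06. MRTO4 was called higher without not-received replicate 1.

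**Figure D3:**
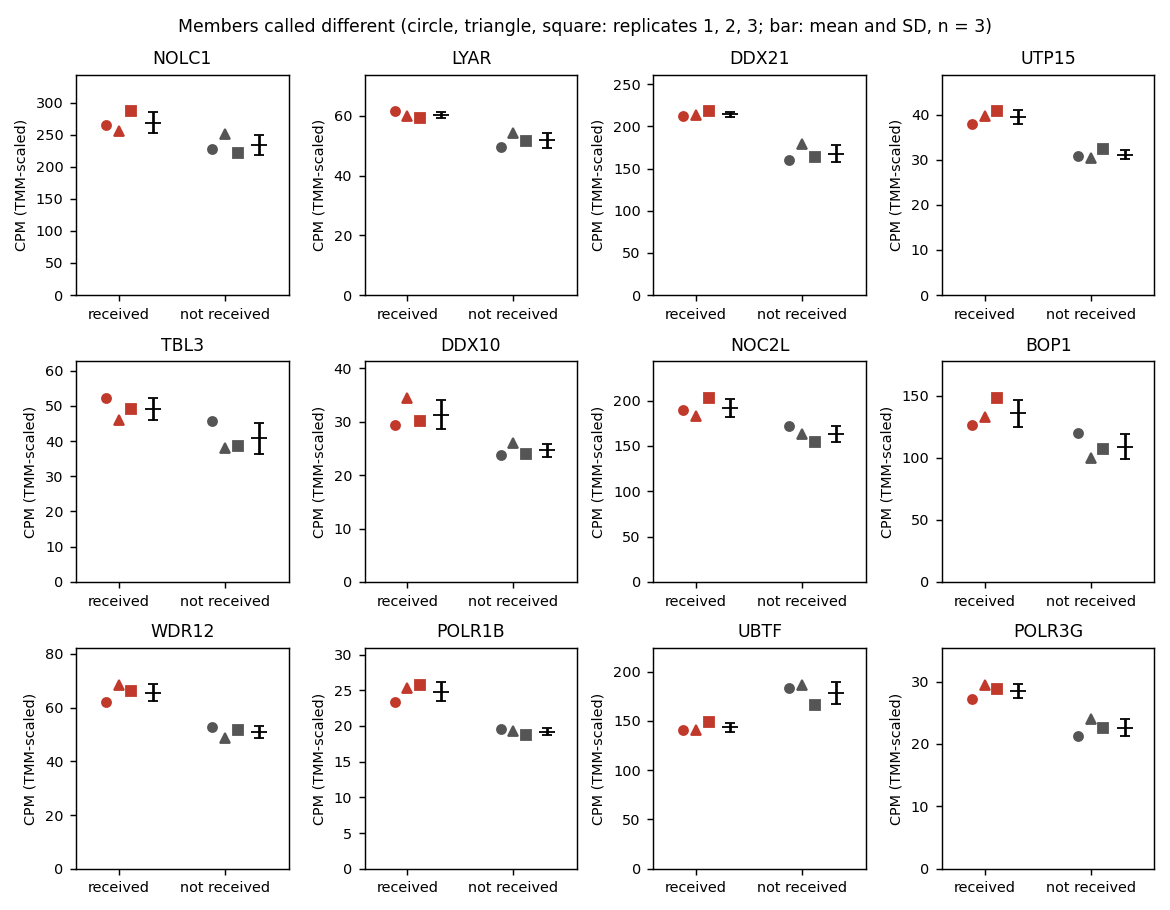
Level in CPM (y axis, from 0) of the 12 called members in the 3 received and the 3 not-received libraries; symbols mark the replicate number and the bar gives the mean and SD. In 11 panels the received points lie above the others, with narrow gaps in NOLC1 and TBL3, and in the UBTF panel they lie below.

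The 7 genes of polymerase I transcription moved in both directions. By edgeR 1 rose (14.3%, background 9.21%) and 1 fell (14.3%, background 9.67%). POLR1B, the second-largest catalytic subunit, had 23.4, 25.4 and 25.7 CPM in received and 19.6, 19.3 and 18.7 CPM in not-received cells. The not-received values were tightly grouped and the received ones stood clear of them, 1.29-fold higher (log2 fold change 0.37 ± 0.08, edgeR adjusted p = 0.0066). UBTF, the factor that coats ribosomal DNA and keeps its chromatin open, fell to 141, 141 and 149 CPM in received cells, against 183, 186 and 166 CPM in not-received cells. The means were 143 ± 4.45 and 179 ± 10.9 CPM (SD, n = 3 each), a difference of -0.32 ± 0.06 on the log2 scale (edgeR adjusted p = 0.00314) that stayed under 0.05 in each fit with 1 library left out (highest edgeR adjusted p = 0.0332). POLR1A, the largest subunit, had 81.2, 81.0 and 87.3 CPM in received and 88.5, 88.8 and 77.6 CPM in not-received cells. Its groups overlapped (-0.03 ± 0.07, edgeR adjusted p = 0.775), and its sign was positive with scaling by library size alone or without not-received replicate 2.

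Without not-received replicate 2 POLR1E was called higher too. The accessory genes lay between these. POLR1E, a subunit of the initiation-competent enzyme, had a fold change of 0.20 ± 0.08 on the log2 scale (edgeR adjusted p = 0.0946), TAF1D, of the promoter selectivity factor, of 0.14 ± 0.07, and POLR1C, shared with polymerase III, of 0.02 ± 0.09. RRN3, which makes the polymerase able to initiate, had only 7, 12 and 4 counts in received and 13, 97 and 11 counts in not-received libraries. These are 0.326, 0.644 and 0.222 CPM in received and 0.706, 2.14 and 0.527 CPM in not-received cells, with the one high value in not-received replicate 2. The groups overlapped and it was not called (-1.60 ± 0.61, edgeR adjusted p = 0.1003), although it was called lower with no low-count filter and without not-received replicate 3, and its value was -0.62 without not-received replicate 2. RRN3 has pseudogene copies, listed here at 0.264 CPM or less in sum, so its level is uncertain.

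Of 5 polymerase III genes 1 rose (20%, background 9.21%), a share that rests on a single gene. POLR3G, a subunit whose expression is known from stem and tumour cells, had 27.2, 29.4 and 28.8 CPM in received and 21.3, 24.0 and 22.6 CPM in not-received cells. The groups did not meet (log2 fold change 0.33 ± 0.08, edgeR adjusted p = 0.0117), but the call was lost without received replicate 2 or 3 (highest edgeR adjusted p = 0.0607). POLR3GL, which takes the same place in the enzyme in most differentiated cells and is not a member, had 33.8, 33.1 and 33.7 CPM in received and 30.5, 27.5 and 31.7 CPM in not-received cells (0.17 ± 0.08, edgeR adjusted p = 0.143). The ratio of POLR3G to POLR3GL in CPM was 0.805, 0.890 and 0.853 in received and 0.698, 0.873 and 0.711 in not-received libraries, which overlapped. POLR3A, the largest subunit, had 72.7, 70.9 and 75.7 CPM in received and 66.0, 70.3 and 62.7 CPM in not-received cells (0.14 ± 0.07, edgeR adjusted p = 0.167). POLR3B, the second-largest, had a fold change of -0.0037 ± 0.16 on the log2 scale. Without not-received replicate 2 POLR3A was called higher too. The related initiation factors BRF1, used at transfer RNA genes, and BRF2, used at U6-type genes, had -0.08 ± 0.08 and 0.22 ± 0.13.

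Genes of the pathway that are not members were also counted. Of 151 such genes in 7 lists, 144 were tested, 24 rose (16.7%, background 9.21%) and 4 fell (2.78%, background 9.67%), and their median log2 fold change was 0.09. The count of 24 was 10, 9 and 6 without received replicate 1, 2 and 3, where 4.23%, 4.15% and 4.52% of all genes were called higher, so that without received replicate 3 it was near the background. In the other direction the count of 4 was 1, 1 and 2 in those fits, 1 if not-received replicate 1 was left out and 2 if replicate 3 was. Other large-subunit factors held the most calls, with 12 of 45 higher (5, 5 and 2 without received replicate 1, 2 and 3). NMD3, the export adaptor of the large subunit, had 100.4, 100.7 and 98.9 CPM in received and 74.7, 71.6 and 75.1 CPM in not-received cells (log2 fold change 0.44 ± 0.06, edgeR adjusted p = 1.96e-04), a gap many times its spread. SENP3, a SUMO protease of the nucleolus, rose by 0.69 ± 0.17 and BRIX1, an early large-subunit factor, by 0.42 ± 0.13. A readthrough gene of SENP3 and EIF4A1 is also listed, so the SENP3 level is uncertain. The call of SENP3 was lost without received replicate 2 or 3, and that of BRIX1 in 5 of 6 fits with 1 library left out. Other small-subunit factors had 4 of 40 higher and 1 lower, a share close to the background; WDR3, a scaffold bound to TBL3 and PWP2, rose by 0.38 ± 0.06, DCAF13 by 0.28 ± 0.06 and the methyltransferase EMG1 by 0.28 ± 0.09. UTP6, which rose by 0.21 ± 0.06, and RRP36, which fell by 0.20, were named after their values were seen. The 4 were 2, 1 and 1 without received replicate 1, 2 and 3 and 7 with scaling by library size alone. DCAF13 was not called without received replicate 2 or 3, and EMG1, UTP6 and RRP36 were each lost in 4 or 5 of the 6 fits with 1 library left out. RRP36 was also lost with scaling by library size alone.

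In the list of snoRNP core and assembly genes 3 of 11 rose (27.3%, background 9.21%) and 1 fell (9.09%, background 9.67%). NOP53, which is also on the large-subunit list, rose by 0.35 ± 0.07 and NUFIP1, an assembly factor of box C/D particles, by 0.33 ± 0.10, while PIH1D1, of a chaperone complex for these particles, fell by 0.27. RUVBL1, a chaperone ATPase named after its value was seen, rose by 0.23 ± 0.06. The calls of NUFIP1 and PIH1D1 were lost without any 1 received library or without not-received replicate 1, that of PIH1D1 also without not-received replicate 3, and that of RUVBL1 without received replicate 1 or 3. FBL, the box C/D methyltransferase fibrillarin, had 2.56, 1.39 and 1.83 CPM in received and 2.499, 0.595 and 1.82 CPM in not-received cells (0.31 ± 0.49, edgeR adjusted p = 0.695). Its sign was negative without not-received replicate 2. How reads that match several genes were assigned is not given, so the FBL level is uncertain. Of 14 RNA exosome genes, whose products trim ribosomal RNA ends, 2 rose (14.3%, background 9.21%). They were EXOSC8, up by 0.37 ± 0.07, and the helicase MTREX, up by 0.27 ± 0.06. The exosome count was 4 with scaling by library size alone or without not-received replicate 1, and 1 without received replicate 2.

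Further polymerase subunits gave few calls. By edgeR 0 of 8 other polymerase I genes were called, also 0 by DESeq2, with 2 higher at an unadjusted p under 0.05 (background 16.6%). POLR1F came closest (0.21 ± 0.07, edgeR adjusted p = 0.0507). It was called higher with scaling by library size alone (edgeR adjusted p = 0.0265) and in 1 of 6 fits with 1 library left out. Of 22 other polymerase III genes 4 rose (18.2%, background 9.21%) and 1 fell (4.55%, background 9.67%). POLR3D and SNAPC5 both rose by 0.36 (SE 0.08 and 0.09) and POLR3C, a subunit of the initiation subcomplex, fell by 0.31. GTF3C3 and SNAPC3, named after their values were seen, rose by 0.22 and 0.26. The 4 were 1 without any 1 received library, and the 1 was 0 without received replicate 1 or 2. Of 5 subunits shared between polymerases POLR2L alone was called, as lower (20%, background 9.67%). It fell by 0.52 to 117, 93.0 and 123 CPM in received cells, against 171, 142 and 165 CPM in not-received cells (edgeR adjusted p = 0.0136). This call was lost without not-received replicate 1 or 3. Of 14 host genes of snoRNAs 2 rose (14.3%, background 9.21%), GAS5 by 0.47 ± 0.09 and ZFAS1 by 0.41 ± 0.07. The count was 4 by limma-voom, with no low-count filter or without not-received replicate 1 or 2.

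**Figure D4:**
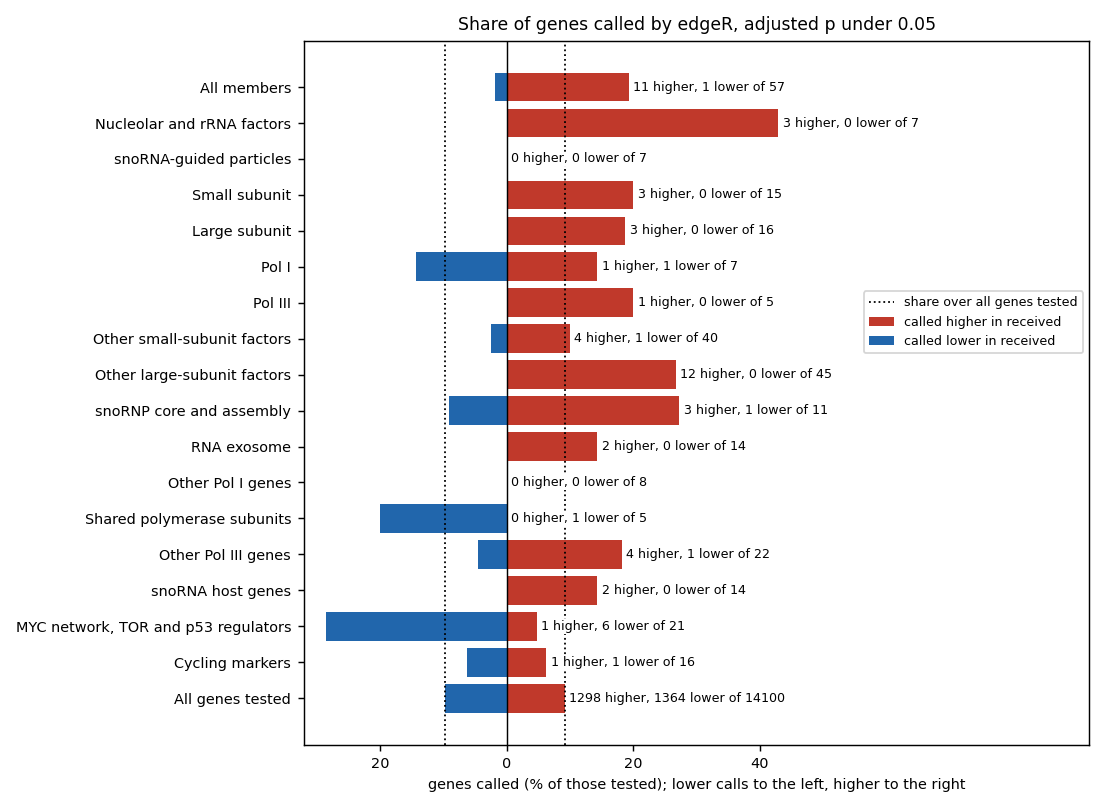
Share of tested genes called by edgeR in each role and pathway list and among cycling markers (bars; higher calls to the right, lower calls to the left), with the share over all 14100 tested genes as dotted lines at 9.21% and 9.67%. All members (19.3%) and most roles and lists pass the line for higher calls, many of them on few calls. The longest bars to the right are nucleolar factors (42.9%, 3 calls), snoRNP core and assembly (27.3%, 3 calls) and other large-subunit factors (26.7%, 12 calls). Neither snoRNA-guided particles nor other polymerase I genes have calls, and the list of MYC network, TOR and p53 regulators has the longest bar to the left.

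Of 22 regulators that act on the pathway 21 were tested, and 6 were lower (28.6%, background 9.67%) and 1 higher (4.76%, background 9.21%). MYC itself had 123, 118 and 133 CPM in received and 107, 112 and 110 CPM in not-received cells. The groups did not overlap, but the adjusted p missed the threshold (log2 fold change 0.18 ± 0.06, edgeR adjusted p = 0.0561). MXD4, which competes with MYC for the partner MAX, fell to 19.6, 19.95 and 18.8 CPM in received cells, against 36.4, 30.9 and 30.3 CPM in not-received cells (-0.74 ± 0.09, edgeR adjusted p = 8.88e-05). MXD3 of the same family fell by 0.37 and TSC1, which restrains the growth kinase complex TORC1, by 0.38 (edgeR adjusted p = 0.00697 and 0.0072). Other genes of the list, also named after their values were seen, were not called. MXI1 had 0.28 ± 0.11 (edgeR adjusted p = 0.0972), MXD1 0.10 ± 0.20 and MTOR -0.16 ± 0.08 (edgeR adjusted p = 0.162). Over the 21 tested regulators 7 fold changes were positive and 14 negative on the log2 scale. The remaining calls, named after their values were seen, were MAX, MNT and TSC2, lower by 0.19, 0.35 and 0.32, and MDM2, the ubiquitin ligase of p53, higher by 0.31. The 6 were 2 to 3 in the fits that lacked a received library, and also 3 without not-received replicate 1. MXD4 kept its call in all 6 of these fits, TSC1 lost it without received replicate 1, and MXD3 without received replicate 2. MAX, MNT and TSC2 were each lost in 3 to 5 of them. MDM2 was not called without received replicate 1 or 3, and 3 regulators rose without not-received replicate 2.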

How the data were processed

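Sorted cells were lysed in TRIzol, and poly-T selected mRNA was made into cDNA from random hexamers and sequenced as 150 bp read pairs, per the labels' protocols. Each library has 1 deposited table of raw counts by gene symbol. DESeq and R 3.6.1 are named in the submitters' processing notes. The aligner, counter, build and annotation were not given in the sources used here; coordinates are printed for RefSeq promoter windows alone.

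After filterByExpr of edgeR 4.0.16, 14100 genes were scaled with TMM factors and tested in R 4.3.3 with glmQLFit (robust) and glmQLFTest, the group as single term, with Benjamini-Hochberg adjustment over all genes and a threshold of 0.05. Dividing the absolute log2 fold change by the square root of F gave its SE. Replicates differed by more than counting noise in every pair (chi-square per gene 3.40 to 20.6). A gene at 3 counts stands at 0.0647 to 0.168 CPM; such floors cover counting error only. The steps were tested on simulated counts.

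Members and lists were chosen with earlier results of these data known. Per role, called members averaging 1 or more in log2 CPM are given by library (up to 5; the 2 smallest p where none), with NCL, NPM1, NOP56, DKC1, POLR1A, POLR1B, UBTF, RRN3, POLR3A and POLR3G; per list up to 3, or the smallest p, with POLR3GL, FBL and MYC. PES1, PPAN and PWP2 were added after their values were seen. Among marker lists, the genes so chosen are in the closing section. The alternatives were other scaling, DESeq2 1.42.0, limma-voom (limma 3.58.1), other filters, a replicate block and leaving out each library.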

Additional observations from a re-analysis of the deposited data

How the results depend on the processing

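The counts of members that rose were 5 to 17 with 1 library left out, those that fell 1 to 2, and their median log2 fold change 0.12 to 0.14; with scaling by library size alone the median was 0.16. With no low-count filter 2 members fell (UBTF and RRN3) and 2084 genes in all. By DESeq2 the same 12 members were called, and by limma-voom 11 of them. With 1 library left out, other pathway genes gave 6 to 26 higher and 1 to 5 lower, and all genes 604 to 1356 higher and 691 to 1579 lower. The log2 fold change of POLR1A was 0.0042 with library size alone and -0.093 to 0.0017 with 1 library left out, and that of FBL was -0.14 to 0.78 with 1 library left out, in both genes with the other sign without not-received replicate 2; the cause was not tested. Whether libraries with the same replicate number shared a culture is unknown. Deviations of same-numbered libraries from their group means correlated at -0.20, -0.07 and 0.05, and those of the other pairs at -0.19 to 0.25. With 3 libraries a group, such values cannot decide whether the libraries were paired. A fit with a replicate block gave 9 members higher, LYAR and NOLC1 not among them, and 2 lower (UBTF and RRN3). In all, 1252 genes were higher and 1384 lower in that fit. At these depths genes with few counts, such as NOC4L and RRN3, cannot show a difference of the size seen elsewhere.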

Other observations

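Genes outside the pathway that mark glioma lines, cycling cells or other cell types were also measured. Of 6 markers of glioma lines, NES, the intermediate filament protein nestin, rose by 0.46 ± 0.09 on the log2 scale (edgeR adjusted p = 0.00274) and VIM, vimentin, by 0.26 ± 0.07, while CD44, a hyaluronan receptor, fell by 0.23. The calls of VIM and CD44 were lost without any 1 received library. Among cycling markers MCM5, a replication helicase subunit, fell by 0.29 and CCNB1, cyclin B1, rose by 0.20. The MCM5 call was lost without received replicate 1 and the CCNB1 call without any 1 received library. Of astrocyte markers ALDOC stood at -0.21 ± 0.08 on the log2 scale (edgeR adjusted p = 0.0637) and was called lower without not-received replicate 1. Of 10 myeloid markers 2 were tested and 4 were at 0 counts everywhere, and TMEM119 had -0.33 ± 0.16 (edgeR adjusted p = 0.153). TMEM119 was called lower without not-received replicate 2 (edgeR adjusted p = 0.0403). Of 6 neuronal markers 3 were tested, 2 with a positive and 1 with a negative fold change on the log2 scale. SNAP25, a synaptic fusion protein, fell by 0.49 (edgeR adjusted p = 0.0101, lost without received replicate 1). It stood at 9.51 ± 1.22 CPM in received cells, against 13.3 ± 0.230 CPM in not-received cells (SD, n = 3 each). SYT1 ran the other way and was not called (0.63 ± 0.35, edgeR adjusted p = 0.218). Its mean was low, at 1.01 CPM in received and 0.653 CPM in not-received cells.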
